A study of Mus musculus with 4 samples.

Results

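Of the 49315 genes in the deposited count table, 10 are described here, chosen by symbol as genes that mark smooth muscle cells, pericytes and myofibroblasts. There were 6 genes for contractile and cytoskeletal proteins, *Acta2*, *Tagln*, *Myh11*, *Cnn1*, *Des* and *Myl9*, and 4 genes for surface or signalling proteins of mural cells, *Cspg4*, *Notch3*, *Pdgfrb* and *Rgs5*. All 10 were found, each in 1 row of the table. They were read in RNA of group 2 innate lymphoid cells (ILC2s), tissue lymphocytes without antigen receptors, that had been sorted from the lungs of mice for Thy1.2, ICOS and T1/ST2 among lineage-negative cells and then cultured with IL-2. The 4 groups were WT mice given PBS (PBS-WT), *Hps1*-/- mice given PBS (PBS-HPS1), WT mice given bleomycin (BLEO-WT) and *Hps1*-/- mice given bleomycin (BLEO-HPS1), with 1 library per group. WT mice were C57BL/6, and the study describes its mutant mice as congenic on the same background. Male and female mice were examined in the study. *Hps1*-/- mice are deficient in a subunit of a complex that forms lysosome-related organelles, and bleomycin is an agent that injures the lung and is used to model fibrosis. The study gave bleomycin by an intratracheal and by an intraperitoneal schedule, and which of these, with its age, dose and time, and how many mice lie behind each library is not stated for these libraries in the sources used here. The comparisons ask how bleomycin changed RNA levels in each genotype, and how the genotypes differed under each treatment.

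Smooth muscle cells wrap airways and larger vessels, and pericytes lie along capillaries under the same basement membrane as the endothelium. Both contract through smooth muscle actin and myosin, and both depend on PDGF-BB from the endothelium, which signals through PDGFRβ, and on Notch signals received through NOTCH3. Myofibroblasts are matrix-producing cells that take up contractile proteins, α-smooth muscle actin above all, in healing and fibrotic lung. Many contractile genes are activated by serum response factor (SRF), which binds the CArG box, and its coactivators myocardin and the myocardin-related factors. None of the 10 genes is a defining gene of ILC2s.

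The libraries held 72513619 to 87638154 counted reads from 22405 to 128647 cells, and 3 reads corresponded to 0.0303 to 0.0475 CPM (reads scaled to a common library size) after TMM scaling. *Hps1* had 38.3 and 48.4 CPM in the WT libraries and 16.6 and 21.3 CPM in the *Hps1*-/- libraries, with PBS and bleomycin in that order, so reads of the gene remained in both *Hps1*-/- libraries. Markers of the sorted cells were read in every library, with *Gata3*, the transcription factor of ILC2s, at 25.1 to 39.1 CPM and *Il1rl1*, which encodes the T1/ST2 of the sort, at 23.8 to 40.9 CPM. Defining genes of other lung cells were read as well. *Sftpc*, the surfactant gene of alveolar type 2 cells, had 185 to 816 CPM, *Chil3*, an alveolar macrophage gene, 1758 to 3926 CPM, *Pecam1*, an endothelial gene, 172 to 203 CPM, and *Col1a1*, the collagen gene of fibroblasts, 38.2 to 982 CPM. No marker found from the fibroblast, endothelial, epithelial, mesothelial, macrophage or striated muscle lists was at 0 reads in any library. *Siglecf*, on the macrophage list, was not found under this symbol. In bulk RNA, fewer cells of a type and less RNA per cell cannot be told apart.

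The CArG box, 10 bases made of CC, then 6 bases of A or T, then GG, was looked for in the stretch from 250 bases before to 50 bases after the transcription start in RefSeq (GRCm38.p6). Promoters were found for 7 of the 10 genes, not for *Tagln*, *Myh11* or *Pdgfrb*. An exact box stood in 1.63% of all 32851 promoter windows, and a box with at most 1 mismatch in 21.1%. Since the box reads the same on both strands, 1 search covered both. *Myl9* held 1 exact box and 1 box with a mismatch, *Acta2* held 2 boxes with a mismatch each, *Cspg4* held 2 such boxes that overlap, and *Cnn1*, *Des*, *Notch3* and *Rgs5* held none in this window. The stretches of *Acta2* and *Myl9* are shown because they hold the matches of 2 contractile genes with different values below, that of *Des* because its values went with those of *Acta2* although no box was matched, and that of *Cspg4* as the gene with the most different values. Capitals mark the matched letters, and each stretch is written 5′ to 3′ on the strand of the gene. The *Acta2* stretches lie in an exon of the GENCODE annotation, at chr19:34255438-34255467 and chr19:34255388-34255417 on the minus strand, and the others lie before the first annotated exon on the plus strand, at chr2:156775214-156775419 for *Myl9*, chr1:75360042-75360291 for *Des* and chr9:56864854-56865032 for *Cspg4*.
Acta2, box starting 84 bases before the start: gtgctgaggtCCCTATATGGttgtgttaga
Acta2, box starting 34 bases before the start: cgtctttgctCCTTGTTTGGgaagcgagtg
Myl9, exact box first: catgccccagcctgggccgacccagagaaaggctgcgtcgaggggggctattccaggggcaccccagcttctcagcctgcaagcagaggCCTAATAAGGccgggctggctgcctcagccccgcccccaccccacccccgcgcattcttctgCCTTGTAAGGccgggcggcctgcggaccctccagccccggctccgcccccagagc
Des, no box: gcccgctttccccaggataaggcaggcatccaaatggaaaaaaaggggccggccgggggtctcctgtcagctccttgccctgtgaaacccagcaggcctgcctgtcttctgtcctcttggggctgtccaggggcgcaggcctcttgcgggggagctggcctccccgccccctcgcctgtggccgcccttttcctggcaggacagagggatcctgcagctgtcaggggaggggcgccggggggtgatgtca
Cspg4, overlapping boxes: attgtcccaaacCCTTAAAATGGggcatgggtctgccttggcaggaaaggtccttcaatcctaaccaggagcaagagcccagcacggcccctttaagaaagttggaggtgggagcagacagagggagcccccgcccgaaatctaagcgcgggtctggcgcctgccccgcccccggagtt
GTGGGAA, the core letters bound by RBPJ, the DNA-binding partner of Notch, stood on either strand in 6.38% of all windows and in 0 of the 7 promoters found. A match is a run of letters and not a measured site, and a window without one says only that the letters are not there.

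The 10 genes were scarce transcripts in these libraries. Below, 4 values in a row are for PBS-WT first, then PBS-HPS1, then BLEO-WT and last BLEO-HPS1. Together the genes took 0.00501%, 0.00722%, 0.00758% and 0.0114% of all counts, or 46.6, 56.7, 84.8 and 139.9 summed CPM. With TMM scaling, BLEO-HPS1 was the highest library for 8 of the genes, BLEO-WT for *Cspg4* and PBS-WT for *Rgs5*. For *Myh11*, *Notch3* and *Cnn1* this depended on the scaling. With libraries scaled by total counts, their log2 ratios in BLEO-HPS1 against PBS-HPS1 were -0.41, -0.25 and -0.46. Levels of different genes were compared per kb of annotated exon. In PBS-WT the order ran from *Myl9* at 3.72 CPM per kb through *Acta2* at 2.16, *Des* at 1.75, *Pdgfrb* at 1.59, *Notch3* at 0.939, *Tagln* at 0.916, *Rgs5* at 0.751, *Cspg4* at 0.509 and *Myh11* at 0.419 to *Cnn1* at 0.0610. In BLEO-HPS1 *Acta2* led with 11.6 CPM per kb, ahead of *Myl9* at 8.31, *Des* at 7.06, *Pdgfrb* at 5.44 and *Tagln* at 3.67, and *Rgs5* at 0.387 and *Cnn1* at 0.260 stood last. With 1 library per group no spread between mice is known, so these orders and every difference below have no replicate check and no p-value. Intervals are exact 95% intervals from the reads and cover counting error only, not variation between mice or preparations. They are too narrow even for counting error where PCR copies of 1 molecule count as several reads.

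**Figure D1:**
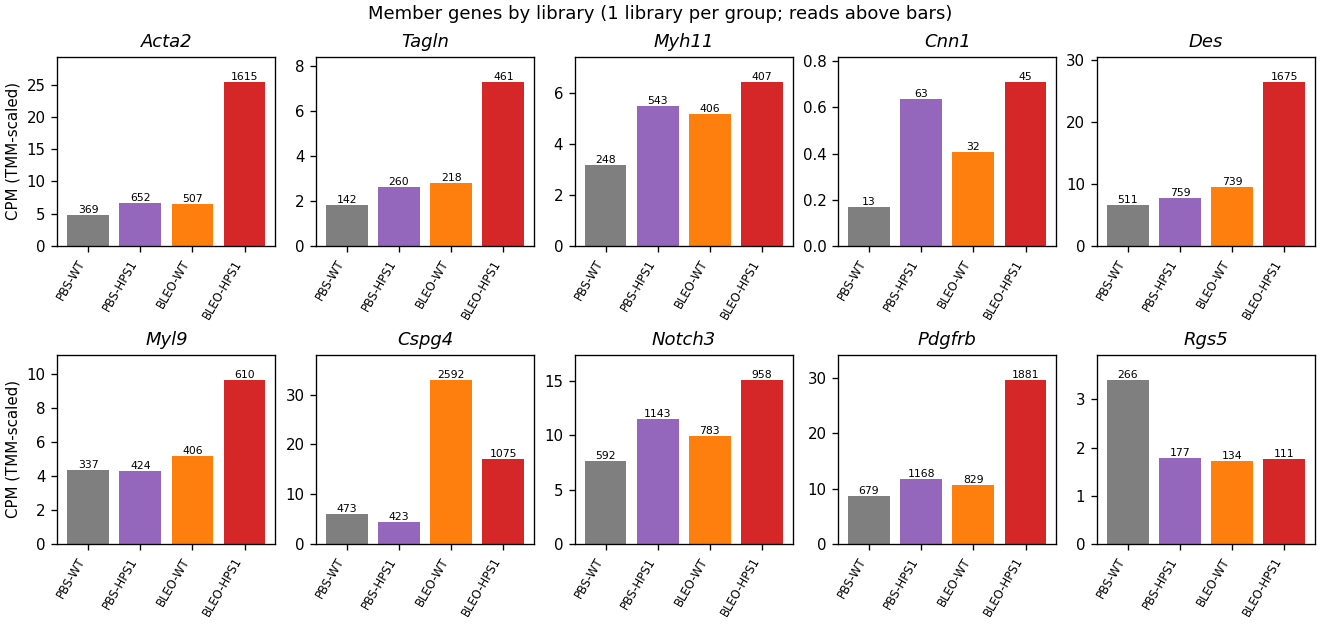
Bars give the TMM-scaled CPM of each of the 10 genes in the 4 libraries (x axis, 1 library per group, each panel with its own axis from 0), with the number of reads above each bar. *Acta2*, *Tagln*, *Des*, *Myl9* and *Pdgfrb* stand highest in BLEO-HPS1, *Cspg4* in BLEO-WT and *Rgs5* in PBS-WT.

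*Acta2* encodes α-smooth muscle actin, the actin isoform used to define myofibroblasts, (GRCm38 chromosome 19, 34241090 to 34255590, minus strand). It was read 369, 652, 507 and 1615 times, which gave 4.73, 6.59, 6.47 and 25.6 CPM. The first 3 libraries stood close together and BLEO-HPS1 stood apart. Between bleomycin-treated mice, *Acta2* was 3.94-fold higher in *Hps1*-/- than in WT (log2 ratio 1.98, interval 1.84 to 2.13), the largest ratio of the 10 genes in this comparison. Bleomycin against PBS gave 1.36-fold in WT (log2 0.45, 0.25 to 0.65) and 3.87-fold in *Hps1*-/- (log2 1.95, 1.82 to 2.09). Of its 50-base stretches, 0.326% also occur in cytoplasmic actin genes or pseudogenes. *Actg1*, one of these, had 1510 to 3212 CPM, and whether its reads entered the *Acta2* count was not tested.

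*Des* and *Tagln* had values of the same kind. *Des* (chromosome 1, 75360329 to 75368579, plus strand) encodes desmin, the intermediate filament of muscle that pericytes also carry, and had 511, 759, 739 and 1675 reads, or 6.56, 7.67, 9.43 and 26.5 CPM. BLEO-HPS1 was again alone at the top, 2.81-fold above BLEO-WT (log2 1.49, 1.37 to 1.62) and 3.45-fold above PBS-HPS1 (log2 1.79, 1.67 to 1.92). *Tagln* (chromosome 9, 45929619 to 45936058, minus strand) encodes transgelin or SM22α, an actin-binding protein of smooth muscle, and had 142, 260, 218 and 461 reads, or 1.82, 2.63, 2.78 and 7.30 CPM. Its level in BLEO-HPS1 was 2.61-fold that in BLEO-WT (log2 1.38, 1.16 to 1.63) and 2.76-fold that in PBS-HPS1 (log2 1.47, 1.25 to 1.70). The value of *Tagln* is less certain than the others, since 58.3% of its 50-base stretches lie opposite exons of *Pcsk7* or *Gm48529* and the strand setting of the counting is not given in the sources used here. *Pcsk7*, a protease gene, had 42.2 to 69.9 CPM, and whether its reads entered the *Tagln* count was not tested.

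The remaining contractile genes did not share the size of that difference. *Myh11* (chromosome 16, 14194535 to 14291372, minus strand), the heavy chain of smooth muscle myosin and the most restricted marker of mature smooth muscle, had 248, 543, 406 and 407 reads, or 3.18, 5.48, 5.18 and 6.44 CPM. Its level was lowest in PBS-WT and lay within a narrow range in the other 3 libraries, with BLEO-HPS1 only 1.24-fold above BLEO-WT (log2 0.31, 0.11 to 0.52). Of the 50-base stretches of *Myh11*, 0.34% also occur in *Myh10* or *Myh9*. *Myh9* had 1945 to 2231 CPM, and whether its reads entered the *Myh11* count was not tested. *Myl9* (chromosome 2, 156775420 to 156781658, plus strand), a regulatory light chain of myosin, had 337, 424, 406 and 610 reads, or 4.32, 4.28, 5.18 and 9.66 CPM. BLEO-HPS1 was 1.86-fold above BLEO-WT (log2 0.90, 0.72 to 1.08) and 2.25-fold above PBS-HPS1 (log2 1.17, 0.99 to 1.36). *Cnn1* (chromosome 9, 22099216 to 22109630, plus strand), the calponin of smooth muscle, had 13, 63, 32 and 45 reads, or 0.167, 0.636, 0.408 and 0.712 CPM, and was the only one of the 10 genes that did not reach 1 CPM in any library. It was lowest in PBS-WT, 3.45-fold below PBS-HPS1 with a wide interval (log2 1.79, 1.06 to 2.92).

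Among the mural genes, *Pdgfrb* (chromosome 18, 61045150 to 61085061, plus strand), the receptor for PDGF-BB, was the one whose values went with those of *Acta2*. It had 679, 1168, 829 and 1881 reads, or 8.71, 11.8, 10.6 and 29.8 CPM, and BLEO-HPS1 stood apart from the rest. Its level in BLEO-HPS1 was 2.81-fold that in BLEO-WT (log2 1.49, 1.38 to 1.61) and 2.52-fold that in PBS-HPS1 (log2 1.33, 1.23 to 1.44). *Notch3* (chromosome 17, 32120820 to 32166852, minus strand), the Notch receptor of mural cells, had 592, 1143, 783 and 958 reads, or 7.59, 11.5, 9.99 and 15.2 CPM. With TMM scaling, *Hps1*-/- libraries were higher than WT libraries by nearly the same ratio under PBS (log2 0.60, 0.46 to 0.75) and bleomycin (log2 0.60, 0.47 to 0.74). After a correction for GC content and length, described below, these were 0.33 and 0.60. With total counts they were 0.85 and 0.47, so the likeness depended on the processing. Antisense transcripts lie opposite 4.85% of the *Notch3* stretches and 4.61% of those of *Des*, and had at most 11 reads in any library.

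*Cspg4* and *Rgs5* went other ways. *Cspg4* (chromosome 9, 56865033 to 56899870, plus strand), the NG2 proteoglycan of pericytes, had 473, 423, 2592 and 1075 reads, or 6.07, 4.27, 33.1 and 17.0 CPM. Both bleomycin libraries lay above both PBS libraries, by 5.43-fold in WT (log2 2.44, 2.30 to 2.59) and 3.97-fold in *Hps1*-/- (log2 1.99, 1.83 to 2.16), and the *Hps1*-/- library was the lower one under each treatment (bleomycin log2 -0.96, -1.06 to -0.85; PBS log2 -0.50, -0.70 to -0.31). In BLEO-WT it made up 59.8% of the summed CPM of the 4 mural genes. *Rgs5* (chromosome 1, 169655501 to 169695813, plus strand), a brake on G-protein signalling and the gene most used to mark pericytes, had 266, 177, 134 and 111 reads, or 3.41, 1.79, 1.71 and 1.76 CPM. PBS-WT was the high library and the other 3 were level with one another on this scale, 1.90-fold lower in PBS-HPS1 (log2 -0.92, -1.22 to -0.65) and 1.98-fold lower in BLEO-WT (log2 -0.99, -1.31 to -0.69). BLEO-HPS1 against BLEO-WT gave a log2 ratio of 0.04 for *Rgs5* (-0.34 to 0.41). After a correction for GC content and length, described below, the level of these 3 libraries no longer held, since *Rgs5* had a log2 ratio of -0.47 in BLEO-WT against PBS-WT and 1.25 in BLEO-HPS1 against PBS-HPS1. Nor did PBS-WT then stand above BLEO-HPS1, since the corrected ratio of PBS-HPS1 against PBS-WT, -0.96, was smaller in size than 1.25.

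**Figure D2:**
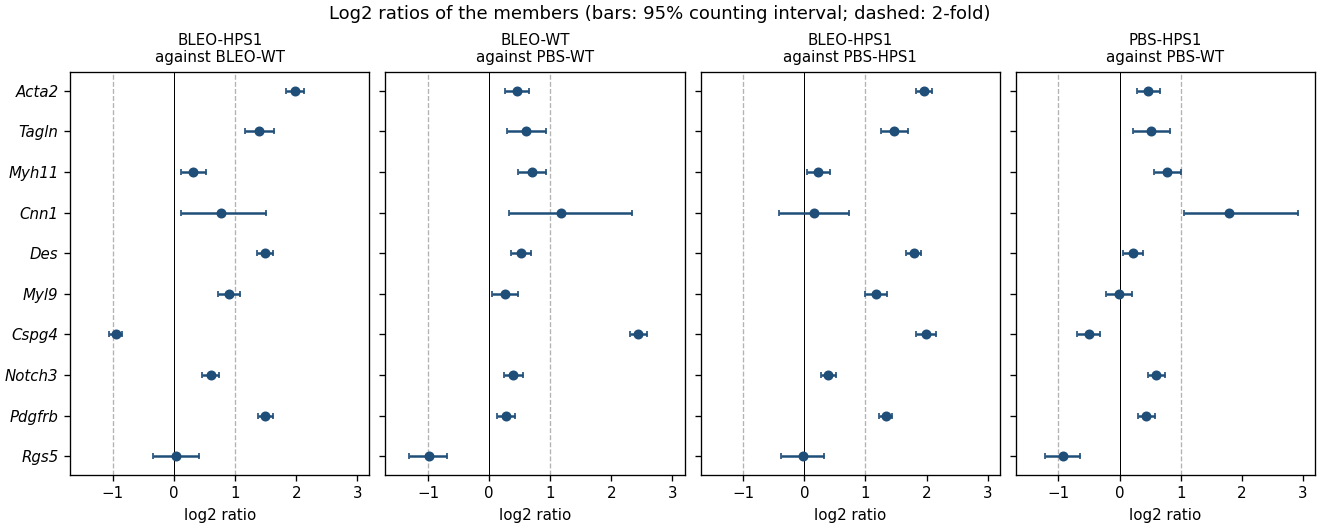
Points are log2 ratios of TMM-scaled CPM (x axis) for the 10 genes (rows) in 4 comparisons (panels), with exact 95% counting intervals as bars and a 2-fold difference as dashed lines. In BLEO-HPS1 against BLEO-WT, *Acta2*, *Tagln*, *Des* and *Pdgfrb* lie beyond the 2-fold line and *Cspg4* lies on the opposite side of 0.

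A difference of at least 2-fold was counted among the 14840 genes with at least 1 CPM in some library, 9 of the 10 genes among them and *Cnn1* not. In BLEO-HPS1 against BLEO-WT, 4 of the 9 were at least 2-fold higher, *Acta2*, *Tagln*, *Des* and *Pdgfrb*, where 6.72% of all compared genes were, and 0 were lower, where 10.3% were, or 17.0% in either direction. With total counts *Cspg4* was counted as lower (log2 -1.09) beside the same number higher, where 4.92% of all genes were higher and 14.8% lower. The median log2 ratio over all 10 genes was 0.83, from -0.96 to 1.98, and that over all compared genes was -0.04. In BLEO-WT against PBS-WT only *Cspg4* of the 9 was past 2-fold, where 5.28% of genes were higher, 8.22% lower and 13.5% either, and the medians were 0.49 for the 10 genes and 0.09 for all. With total counts *Rgs5* was also counted, as lower, where 3.17% of genes were higher and 13.4% lower. For BLEO-HPS1 against PBS-HPS1, 6 of the 9 were at least 2-fold higher, *Myl9* and *Cspg4* beside the former 4, but so were 26.2% of all genes (19.6% were lower and 45.9% either), and the medians were 1.25 and 0.25. With total counts in place of TMM this count was 3, *Acta2*, *Des* and *Cspg4*, where 9.06% of all genes were higher and 34.5% lower. Under PBS, 0 of the 9 differed 2-fold between the genotypes, where 2.16% of genes were higher, 3.11% lower and 5.27% either, and the medians were 0.46 and -0.19. With total counts *Myh11* was counted as higher (log2 1.03), where 4.38% of genes were higher and 2.02% lower. Scaling by total counts moved the all-gene medians to -0.18, -0.18, -0.43 and 0.06 in the order given. Relative to them, the medians of the 10 genes stood 0.87, 0.39, 1.0 and 0.65 above with TMM and 0.88, 0.40, 1.04 and 0.64 above with total counts.

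The bleomycin ratio was set between the genotypes by taking the log2 ratio in *Hps1*-/- minus that in WT. It was 1.50 for *Acta2*, 1.26 for *Des* and 1.06 for *Pdgfrb*, the 3 genes at 1 or more, where 16.3% of all compared genes stood. *Rgs5*, *Myl9* and *Tagln* followed with 0.96, 0.91 and 0.86. It was -0.001 for *Notch3*, and lower for *Cspg4* at -0.45, *Myh11* at -0.47 and *Cnn1* at -1.02. The value for *Cnn1* rests on few reads, and 11.2% of all genes stood at -1 or lower. The median was 0.89 over the 10 genes and 0.15 over all genes. It depended on the processing. With total counts the medians were 0.51 and -0.25 and only *Acta2* stood at 1 or more, where 7.0% of all genes did. After the GC and length correction described next they were 0.28 and 0.18, and *Rgs5* at 1.71, *Acta2* at 1.24 and *Pdgfrb* at 1.08 stood at 1 or more, where 10.8% of all genes did, while *Des* came to 0.85, *Tagln* to 0.32 and *Myl9* to 0.08. *Notch3* moved from -0.001 to 0.24 with the correction. These differences share no replicate and were not tested.

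A loess correction for GC content and transcript length was applied to all genes. In BLEO-HPS1 against BLEO-WT, *Pdgfrb* (log2 1.42), *Cspg4* (-0.94) and *Notch3* (0.60) stayed within their counting intervals. *Acta2* came to 1.81, just below its interval. *Des* came to 1.11 and *Tagln* to 0.97, the latter under 2-fold, and *Myl9*, the shortest transcript of the 10, came to 0.23. The count of genes at least 2-fold higher was then 3 of 9, where 5.41% of all genes were higher and 4.3% lower. *Rgs5*, with the lowest GC content at 41.1%, came to 0.69 there, and in BLEO-HPS1 against PBS-HPS1 it moved from -0.02 to 1.25. In that comparison *Tagln* came to 0.78 and *Myl9* to 0.10, both under 2-fold, and 5 of 9 were at least 2-fold higher, *Acta2*, *Des*, *Cspg4*, *Pdgfrb* and *Rgs5*, where 18.5% of all genes were higher and 8.22% lower. The median over the 10 genes in BLEO-HPS1 against BLEO-WT was 0.64 after the correction. The difference between *Acta2* and *Myh11*, whose corrected value was 0.48, was seen with and without it.

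**Figure D3:**
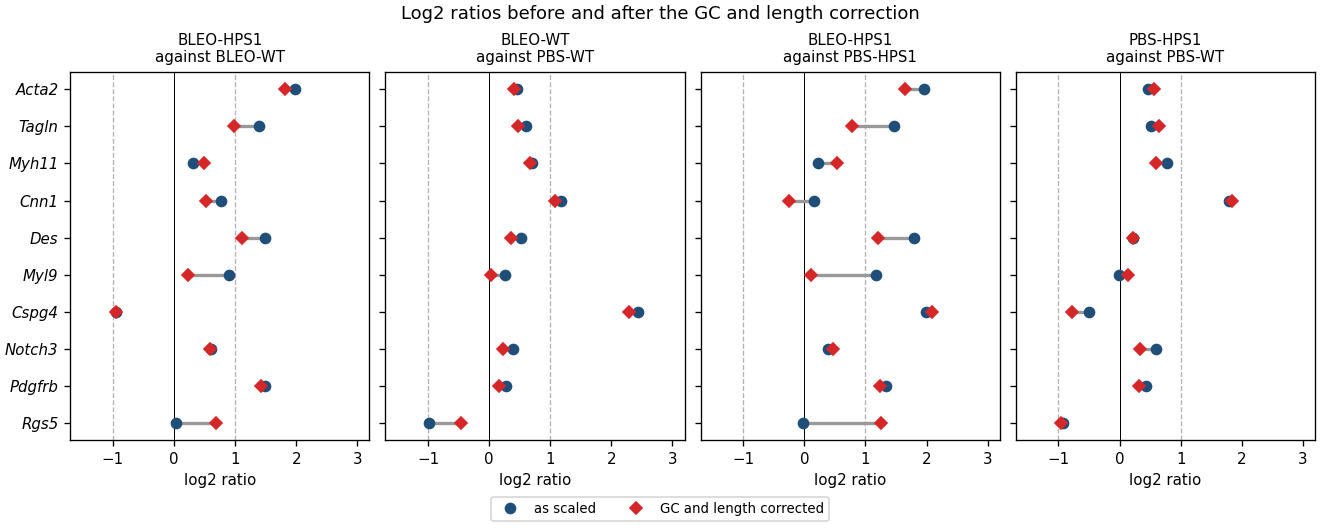
Circles are the log2 ratios as scaled and diamonds those after the GC and length correction (x axis) for the 10 genes (rows) in 4 comparisons (panels), with a 2-fold difference as dashed lines. *Pdgfrb* and *Cspg4* hardly move in BLEO-HPS1 against BLEO-WT, *Des* moves from 1.49 to 1.11, *Myl9* from 0.90 to 0.23 and *Rgs5* from 0.04 to 0.69.

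Ratios of reads within 1 library do not depend on how libraries are scaled. Each contractile gene was set against a gene for its cytoplasmic counterpart, which most cells express. *Acta2* had 0.912, 1.95, 1.32 and 3.42 reads per 1000 reads of *Actb*. *Des* had 2.48, 3.99, 2.22 and 7.70 reads per 1000 reads of *Vim*, the intermediate filament of mesenchymal and immune cells. *Tagln* had 3.12, 5.64, 4.23 and 7.16 per 1000 reads of *Tagln2*, and *Myh11* had 1.43, 2.82, 2.32 and 3.19 per 1000 reads of *Myh9*. In these 4 pairs the *Hps1*-/- library was above the WT library under each treatment. *Myl9* per 1000 reads of *Myl12a* had that order too, over a range of only 12.0 to 15.5, with 12.0, 15.5, 12.3 and 15.4. *Cnn1* per 1000 reads of *Cnn2* was highest in PBS-HPS1 at 2.76. Of 11 such cytoplasmic genes, 0 were 2-fold apart in BLEO-HPS1 against BLEO-WT, with a median log2 ratio of 0.49. In PBS-HPS1 against PBS-WT their median was -0.38 with TMM scaling, with *Actb* at -0.62, *Vim* at -0.46, *Tagln2* at -0.33 and *Myh9* at -0.19. The PBS order of the pairs therefore rests on both genes of each pair. The make-up of the contractile set differed too. There were 2060, 1398, 1820 and 4115 reads of *Des* per 1000 of *Myh11*.

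**Figure D4:**
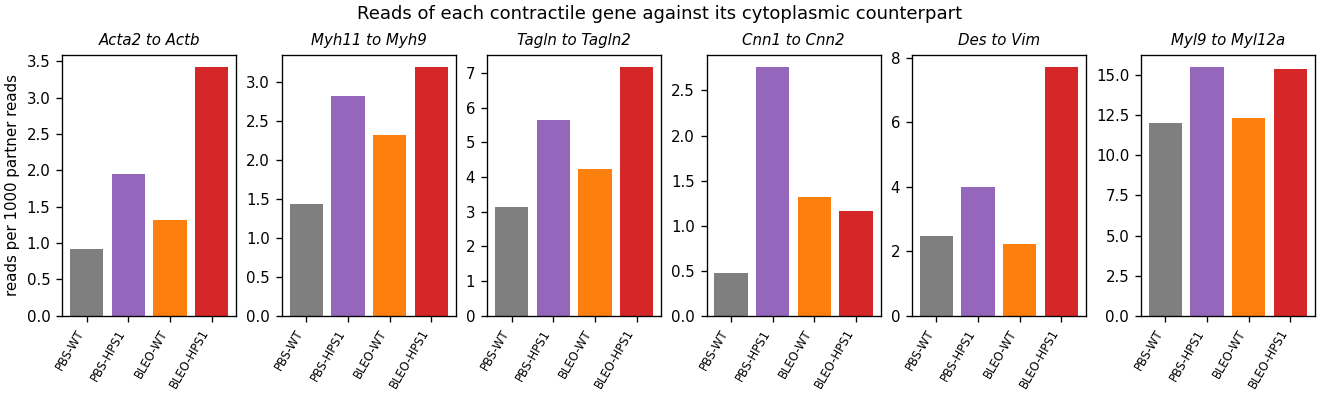
Bars give reads of each contractile gene per 1000 reads of its cytoplasmic counterpart (y axis, each panel with its own axis from 0) in the 4 libraries. *Acta2* to *Actb* and *Des* to *Vim* are highest in BLEO-HPS1, at 3.42 and 7.70, while *Myl9* to *Myl12a* stays between 12.0 and 15.5.

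Other genes of the same cells were taken from lists. Of the other smooth muscle genes, 5 of the 17 compared were at least 2-fold higher in BLEO-HPS1 against BLEO-WT and 0 lower, with a median log2 ratio of 0.60. *Jph2*, which holds calcium-release sites to the membrane, had 1.91, 2.15, 1.82 and 7.22 CPM, a log2 ratio of 1.97 between the bleomycin libraries. *Tpm2*, a muscle tropomyosin, stood at 1.56, *Ppp1r14a*, an inhibitor of myosin phosphatase, at 1.31 and *Ckb*, the creatine kinase of brain and smooth muscle, at 1.18. After the GC and length correction 3 of the 17 were 2-fold higher, and *Ppp1r14a* came to 0.50 and *Ckb* to 0.66.

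Among the other pericyte genes, 6 of 17 were at least 2-fold higher in BLEO-HPS1 against BLEO-WT and 0 lower, with a median of 0.51. *Kcnj8* and *Abcc9*, which form the ATP-sensitive potassium channel of pericytes, had log2 ratios of 1.76 and 1.66. *Kcnj8* had 5.11, 7.80, 5.32 and 18.1 CPM and *Abcc9* 1.71, 3.74, 2.12 and 6.76 CPM, so that for both BLEO-HPS1 was highest and PBS-HPS1 next. *Ndufa4l2* and *Cox4i2*, genes of mitochondrial proteins that are enriched in pericytes, stood at 1.81 and 1.50, and at 1.02 and 0.74 after the correction. The summed level of this list was not highest in BLEO-HPS1. It was 188, 213, 128 and 174 CPM, so each PBS library was above the bleomycin library of the same genotype. Much of this sum came from *Mcam*, with 81.3, 83.7, 59.0 and 67.0 CPM, and *Itga1*, with 34.2, 33.9, 12.1 and 9.56 CPM. The order of the sums therefore does not describe the list gene by gene.

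Of 13 other myofibroblast genes compared, 7 were at least 2-fold higher in BLEO-HPS1 against BLEO-WT and 1 was lower, with a median of 1.11. *Ltbp2*, a matrix protein of elastic fibres, had 7.44, 11.2, 20.2 and 49.0 CPM, *Tnc*, the matrix protein tenascin C, 2.30, 4.19, 11.6 and 26.6 CPM, and *Sfrp1*, a secreted Wnt antagonist, 2.10, 2.33, 7.88 and 17.0 CPM. For these 3 both bleomycin libraries lay above both PBS libraries, with BLEO-HPS1 on top. *Spp1*, osteopontin, which macrophages also make, was the lower one, with 907 CPM in BLEO-WT and 444 in BLEO-HPS1 (log2 -1.03), and came to -0.85 after the correction, under 2-fold. The summed level of this list was 2596, 1906, 13750 and 8790 CPM, so it was highest in BLEO-WT. Much of this sum came from *Fn1*, fibronectin, with 1432, 1058, 10590 and 5995 CPM (log2 -0.82 between the bleomycin libraries).

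Ligands and transcription factors of these cells were listed too. Of 5 genes of the PDGF pathway, 0 were at least 2-fold higher in BLEO-HPS1 against BLEO-WT and 1 was lower, *Pdgfc* (28.98 and 12.7 CPM, log2 -1.19). *Pdgfb*, the ligand of PDGFRβ, had 47.3, 34.7, 54.8 and 73.6 CPM in the 4 libraries. *Pdgfra*, the paired receptor of fibroblasts, had 16.5, 31.0, 22.4 and 35.0 CPM, and *Pdgfrb* had 530, 381, 473 and 850 reads per 1000 of it. Of 11 Notch pathway genes, *Heyl*, a Notch target of mural cells that is also on the pericyte list, was higher (3.35 and 7.68 CPM, log2 1.19), and 2 were lower, the ligand gene *Jag1* (26.8 and 11.3 CPM, log2 -1.24) and *Rbpj* (145 and 67.7 CPM, log2 -1.10). After the correction both were under 2-fold, *Jag1* at -0.87 and *Rbpj* at -0.44. Among 8 SRF and myocardin genes compared, 0 were higher and 1 was lower, where 6.72% of all genes were higher and 10.3% lower. The lower one was *Klf4*, which encodes a repressor of contractile genes (471 and 210 CPM, log2 -1.17). The myocardin-related factors *Mrtfa* and *Mrtfb* were listed but not found under these symbols, so they were not compared. *Srf* itself had 89.9, 69.4, 106 and 138 CPM. *Myocd*, myocardin, the coactivator confined to muscle, had 10, 27, 0 and 6 reads, and 0 reads in BLEO-WT allows up to 0.0383 CPM.

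Fibroblast markers had the same libraries at the top and the bottom as the contractile genes. Of 16, 13 were at least 2-fold higher in BLEO-HPS1 against BLEO-WT and 0 lower, with a median log2 ratio of 2.21, and their summed level was 602, 825, 1279 and 4810 CPM. *Clec3b*, *Mfap5*, *Lum* and *Scara5*, all genes of adventitial or matrix fibroblasts, had log2 ratios of 3.0, 2.91, 2.69 and 2.62. The summed level of the 6 contractile genes was 20.8, 27.3, 29.4 and 76.2 CPM in the same order, so both sums had BLEO-HPS1 on top and PBS-WT at the bottom. *Acta2* had 124, 87.7, 38.1 and 26.0 reads per 1000 of *Col1a1*, an order opposite to that of the fibroblast sum, of which *Col1a1* is itself a part. This order depends on the marker chosen. Between the bleomycin libraries the log2 ratio of *Acta2*, 1.98, lay below that of *Col1a1* (2.53) and above that of *Pdgfra* (0.65), another marker on the list. The part of fibroblast RNA in the values of the 10 genes was not tested.

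Markers of other cells were taken from further lists. Of 10 endothelial markers 0 were 2-fold apart between the bleomycin libraries, and their sum ranged from 707 to 952 CPM. The epithelial sum ran from 1318 CPM in PBS-WT to 537 in BLEO-HPS1, with *Sftpa1* (log2 -1.29, or -0.93 after the correction) and *Sftpb* (-1.08, or -1.71) at least 2-fold lower between the bleomycin libraries. Of 4 mesothelial markers compared 0 were 2-fold apart, and their sum ranged from 12.2 to 15.9 CPM. The striated muscle sum was 11.8 to 18.5 CPM. Of 10 striated muscle markers compared, 4 were at least 2-fold higher between the bleomycin libraries, *Actc1* (log2 1.95), *Ckm* (1.59), *Myl4* (1.42) and *Acta1*, and 1 was lower, *Tnnt3* (-1.19). All but *Acta1* were scarce in BLEO-WT and BLEO-HPS1. *Actc1* had 0.268 and 1.11 CPM, *Ckm* 0.612 and 1.90, *Myl4* 1.40 and 3.80, and *Tnnt3* 1.44 and 0.617. *Acta1*, skeletal muscle actin, had 3.34, 2.33, 3.53 and 7.36 CPM, a log2 ratio of 1.05 between the bleomycin libraries and of 0.44 after the correction. The macrophage sum was 4781 to 7758 CPM, with *Mrc1* lower (702 and 266 CPM, log2 -1.40, or -0.73 after the correction). *Areg* was listed with the ILC2 markers but not found under this symbol. Of 12 ILC2 markers compared 2 were at least 2-fold higher and 0 lower, with a median of -0.17, or 0.01 after the correction. The 2 were *Thy1* (224 and 551 CPM, log2 1.30), which fibroblasts also express, and *Klrg1* (17.7 and 35.6 CPM, log2 1.01). After the correction both were under 2-fold, at 0.77 and 0.89. Of the other defining markers, *Il7r* (-0.96), *Rora* (-0.93), *Icos* (-0.68) and *Il1rl1* (-0.65) were lower by less than 2-fold, and *Gata3* stood at 0.10. Corrected, these came to -0.33, 0.01, -0.20, 0.02 and 0.10. The part of these cells in the values of the 10 genes was not tested.

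**Figure D5:**
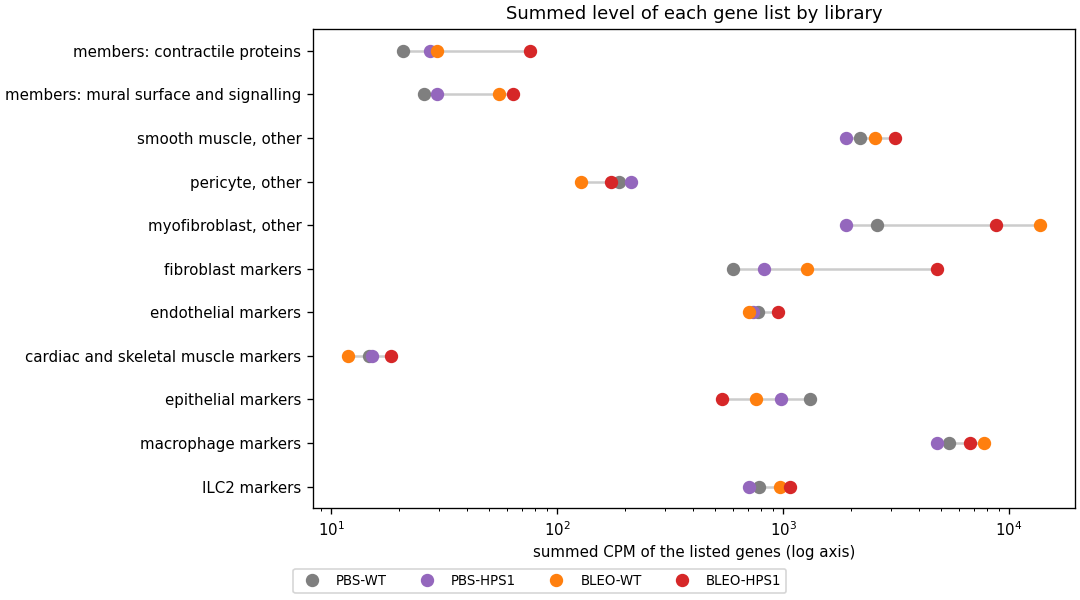
Points give the summed TMM-scaled CPM (x axis, log scale) of each gene list (rows) in the 4 libraries (colours). The fibroblast markers run from 602 CPM in PBS-WT to 4810 in BLEO-HPS1 and the contractile genes from 20.8 to 76.2 CPM with the same libraries at the ends, while the endothelial markers stay between 707 and 952.

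To find the genes with the profile most like that of *Acta2* and *Pdgfrb*, the root mean square distance of mean-centred log2 CPM over the 4 libraries was taken for 11597 genes with at least 5 CPM in some library. Nearest to *Acta2* were *Mrc2*, a collagen uptake receptor, at 0.04 log2 units, *Fndc1* at 0.05, *Fxyd1*, a regulator of the sodium pump, at 0.06, *Wnt2*, a Wnt ligand, at 0.06 and *Evc*, a gene of the primary cilium, at 0.07. *Mrc2* had 9.42, 12.4, 13.0 and 48.2 CPM. Of the other contractile and mural genes, *Des* ranked 35, *Tagln* 49, *Pdgfrb* 78 and *Myl9* 386, and *Notch3* ranked 2057, *Myh11* 3059 and *Cspg4* 8312. Nearest to *Pdgfrb* were *Tmem200b* at 0.05, the haemoglobin gene *Hba-a1* at 0.05, *Prr5* at 0.06, *Evc2*, the partner of *Evc*, at 0.06 and the haemoglobin gene *Hbb-bs* at 0.08. The haemoglobin genes, whose RNA comes from red cells and their precursors, had 74.1, 98.2, 97.4 and 256 CPM for *Hba-a1* and 106, 127, 125 and 367 CPM for *Hbb-bs*. A likeness over 4 libraries is a description of these libraries.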

How the data were processed

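RNA of lung ILC2s was analysed in 4 groups with 1 library each, named from the sample labels. The authors deposited raw counts per Ensembl gene for 49315 genes, from libraries made with a SMARTER mRNA kit. Aligner, counting tool, strand setting and genome build are not given in the sources used here. Positions, lengths and GC contents are from GENCODE M21 on GRCm38, which held 49056 of the gene identifiers, and promoters from RefSeq on GRCm38.p6.

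Library sizes were scaled with TMM factors (0.816 to 1.27) of edgeR 4.0.16 in R 4.3.3, and log2 ratios used a prior count of 2. Genes with at least 1 CPM in at least 1 library were compared, and a difference of at least 2-fold was counted. Without replicates no test was run. Intervals are exact Clopper-Pearson intervals at 95%. DESeq2 1.42.0 size factors, total counts, a prior count of 0.5 or of 10, no filter, a minimum of 10 counts in each library, a 4-fold threshold and a loess fit on GC content and length (span 0.3) were alternatives. The steps were checked on simulated data.

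The 10 genes and the lists were chosen with earlier results of these data known. Beside the 10 genes, the text names at most 4 genes per list with the largest ratio between the bleomycin libraries among those at least 2-fold apart with at least 5 CPM in one of them, defining markers of other cells, cytoplasmic counterparts, and the 5 nearest profiles of *Acta2* and *Pdgfrb*. *Pdgfb*, *Pdgfra*, *Srf* and *Myocd* were named after their values were seen, as were *Pcsk7* and *Gm48529*. So were *Mcam*, *Itga1*, *Actc1*, *Ckm*, *Myl4* and *Tnnt3*. Shared stretches were counted over all 50-base windows of the transcripts.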

Additional observations from a re-analysis of the deposited data

Results flagged for a closer look

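For *Myl9* and *Rgs5* the ratio of *Hps1*-/- to WT had one sign under PBS and the other under bleomycin. *Myl9* had a log2 ratio of -0.01 under PBS (exact 95% counting interval -0.22 to 0.20) and 0.90 under bleomycin (0.72 to 1.08), which differ by 0.91. After the GC and length correction these were 0.13 and 0.23. *Rgs5* had -0.92 under PBS (-1.22 to -0.65) and 0.04 under bleomycin (-0.34 to 0.41), which differ by 0.96, and -0.96 and 0.69 after the correction. In each gene the value near 0 has an interval that includes 0, each value comes from 1 library per group, and the difference was not tested.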

How the results depend on the processing

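At a 4-fold threshold 0 of the 9 compared genes were counted in BLEO-HPS1 against BLEO-WT (4 at 2-fold, and 5 with total counts, *Cspg4* being the added one) and 0 in BLEO-HPS1 against PBS-HPS1 (6 at 2-fold). Total counts gave 3 genes and a median log2 ratio of 0.61 in BLEO-HPS1 against PBS-HPS1 (1.25 with TMM), 2 genes and 0.22 in BLEO-WT against PBS-WT (1 and 0.49), 1 gene and 0.70 in PBS-HPS1 against PBS-WT (0 and 0.46), and 0.51 as the median difference between the genotypes (0.89). In BLEO-WT against PBS-WT, DESeq2 size factors also gave 2 genes, with *Rgs5* added as lower. There 5.0% of all genes were higher and 8.51% lower. No filter also gave 2, with *Cnn1* added as higher, where 4.9% were higher and 12.8% lower. At least 10 counts in every library gave the same 2, where 5.12% were higher and 8.1% lower. In PBS-HPS1 against PBS-WT, *Cnn1* alone was counted, as higher, without the filter or with that minimum. There 13.7% and 2.35% of all genes were higher and 3.94% and 3.11% lower. The share of all genes past 4-fold was not counted. The GC and length correction gave medians of 0.99 in BLEO-HPS1 against PBS-HPS1 and 0.28 for the difference between the genotypes. Of 40 single ratios, total counts took 27 outside their counting interval and changed the sign of 6, and the correction took 18 outside and changed the sign of 3, none of which was past 2-fold with TMM alone. DESeq2 size factors changed the sign of 1, *Myl9* under PBS, and either prior count, the open filter and the count minimum changed none. Beyond the construction of each setting, the cause was not tested. No paired analysis was possible because each group has 1 library, and for the same reason no library could be left out. Depth limits *Cnn1* and *Myocd*, with at most 63 and 27 reads.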

Other observations

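The genes nearest in profile to *Cspg4* and *Rgs5*, looked up after their values were seen, were of other kinds than those nearest to *Acta2*. Nearest to *Cspg4* were *B3galnt1* at 0.14 log2 units, *Ccl7*, a chemokine for monocytes, at 0.14, *Lrrc27* at 0.15, *Dcstamp*, a gene of macrophage and osteoclast fusion, at 0.18 and *Ctsl*, a lysosomal protease, at 0.21. In the library order of the text above, *Ccl7* had 2.80, 2.46, 19.6 and 8.94 CPM, *Dcstamp* 4.03, 2.44, 19.4 and 13.3 CPM and *Ctsl* 117, 93.6, 482 and 330 CPM. *Fn1*, fibronectin, which is on the myofibroblast list and was also named after its value was seen, was highest in BLEO-WT, with 1432, 1058, 10590 and 5995 CPM. None of the other genes in the set with a rank came closer to *Cspg4* than *Myl9*, at rank 4655 of 11597.

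Nearest to *Rgs5* were *H2-T24*, a class I histocompatibility gene, at 0.06, *Rsad2*, an antiviral gene induced by interferon, at 0.07, *Abcg3* at 0.08, *Mbp*, myelin basic protein, at 0.08 and *Gpd1*, a glycerol phosphate dehydrogenase, at 0.11. *Rsad2* had 20.96, 9.89, 10.3 and 9.80 CPM and *Mbp* 353, 164, 180 and 170 CPM, with PBS-WT alone at the top. *Notch3*, at rank 8669, was the nearest to *Rgs5* of the others in the set. The profiles were taken without the GC and length correction, after which PBS-WT no longer stood above BLEO-HPS1 for *Rgs5*. A likeness over 4 libraries says nothing of shared function, and these values are given as a description.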
